A study of Mus musculus with 18 samples.

Results

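The genes examined here are 43 antioxidant genes and targets of the transcription factor NRF2, chosen by symbol from a list that covers the NRF2 pathway, the peroxide and glutathione enzymes, the thioredoxin system, the pentose phosphate pathway and the metallothioneins. All 43 were listed among the 24346 genes of each library, and 42 passed the filter on low values that left 12234 genes in the test. The exception was Slc7a11, the light chain of the cystine importer, which read between 0.226 and 0.667 FPKM in the 18 libraries. Cell-protective genes of this kind were measured by RNA sequencing of isolated islets of Langerhans, the endocrine clusters of the pancreas, from C57BL/6 mice. The genotypes were mice with exon 2 of Cdh13 deleted ("deleted") and mice in which loxP sites flank that exon ("floxed"). The protein made from Cdh13, T-cadherin, is a cadherin without a cytoplasmic tail. Chow-fed mice of each genotype were sampled at ages of 8 and 14 weeks, and others at 14 weeks after a high-fat diet for the last 6 weeks, which gave 6 groups of 3 libraries. The labels name no Cre driver, no tissue of deletion, no sex and no pooling of animals, and do not say that replicates are separate animals, so each p measures the spread between these libraries, which may be technical.

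NRF2, encoded by Nfe2l2, is held low by KEAP1, which targets it for degradation. Oxidants and electrophiles modify KEAP1, and NRF2 then binds antioxidant response elements near genes for glutathione synthesis, thioredoxin recycling, NADPH supply and conjugation of reactive compounds. Because this switch acts on the NRF2 protein, the pathway can change without a change in Nfe2l2 RNA. Pancreatic beta cells are known for low levels of catalase and glutathione peroxidase, and for leaning on peroxiredoxins and thioredoxin to remove hydrogen peroxide.

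Levels are FPKM, by definition fragments scaled by transcript length and by the total mapped in the library, so they can be compared between genes. The deposited values look rescaled between libraries as well, as described with the processing below. Differences are of log2(FPKM + 1), which understates the change of genes at low FPKM. A gene was called when its limma p, adjusted over all 12234 tested genes by the Benjamini-Hochberg method, was below 0.05. Summed FPKM per library ranged from 903346 to 1394010, and the number of sequenced fragments is unknown. Ins2, the main mouse insulin gene, held 40.2% to 52.7% of that sum, so the labelled tissue carried its defining transcript in every library. Cdh13 was lower in every deleted than in every floxed library of the same condition. It read 1.08 to 1.84 against 0.353 to 0.778 FPKM at 8 weeks, 1.33 to 2.06 against 0.419 to 0.691 FPKM at 14 weeks on chow, and 1.17 to 1.43 against 0.247 to 0.809 FPKM on the high-fat diet. Only the last of these was called (-0.69 ± 0.168 SE, adjusted p = 0.0107), and the value covers all exons rather than exon 2 alone.

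The tested members were abundant transcripts, with a median level of 75.3 FPKM over the 18 libraries against 9.88 FPKM for all tested genes. At the top stood Ftl1, the ferritin light chain (7620 to 11020 FPKM), and Mt1, a metal-binding metallothionein (4286 to 9692 FPKM). Next came Mt2 (920 to 2121 FPKM), Fth1, the ferritin heavy chain (1068 to 1696 FPKM), and Sqstm1, the autophagy receptor p62 that binds KEAP1 (782 to 1230 FPKM). Among enzymes that remove peroxide, Prdx1 (355 to 504 FPKM), Gpx4 (351 to 509 FPKM) and Gpx3 (286 to 563 FPKM) were far above catalase, Cat, at 8.67 to 15.5 FPKM. Nqo1, the quinone reductase often used to read out NRF2 activity, was low at 2.87 to 12.1 FPKM. Gsta4, a glutathione transferase for lipid aldehydes, was lower still at 0.087 to 2.90 FPKM and varied more between replicates than between groups. In 26 of all 43 members the group with the highest mean was the deleted group on the high-fat diet, and in 13 it was the floxed group on the high-fat diet. The highest group was not counted over all tested genes, and the 43 include Slc7a11, which was not tested.

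**Figure D1:**
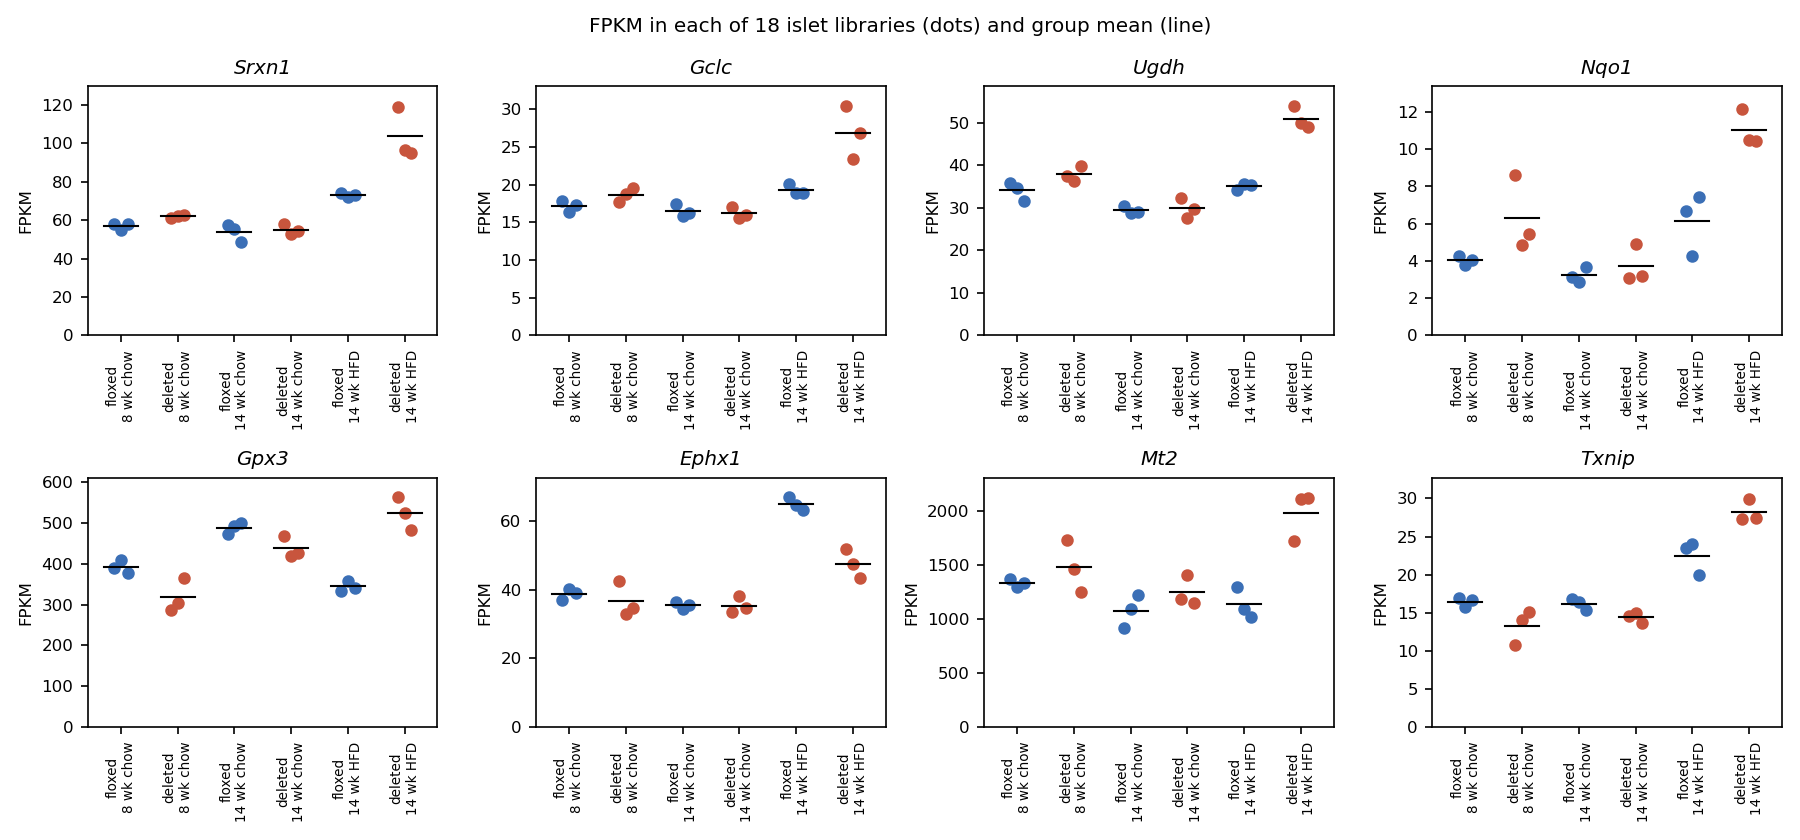
FPKM of 8 members in each of 18 libraries (dots) with the group mean (line), by genotype and condition, on axes that start at 0. For Srxn1, Gclc, Ugdh and Nqo1 all 3 deleted libraries on the high-fat diet lie above the 3 floxed ones on that diet, while Ephx1 is highest in the floxed group on the high-fat diet.

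High-fat feeding of floxed mice went with higher levels of most of these genes. Of 42 tested members, 24 rose and 2 fell against floxed chow islets of the same age, where 15% of all tested genes were called higher and 13.5% lower. The median difference was 0.23 for members and -0.01 for all tested genes. By role, 9 of 10 genes of the thioredoxin and peroxiredoxin system rose, and of the 7 genes for peroxide and superoxide removal 5 rose and 1 fell. Of the detoxification genes 4 of 7 rose, of the regulators 2 of 4, of the metal and heme genes 2 of 5 and of the glutathione synthesis and recycling genes 1 of 4. Of the 5 NADPH supply genes 1 rose and 1 fell.

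Osgin1 (chr8:119425882-119446257, mm10), an oxidative-stress-induced growth inhibitor known as an NRF2 target, had the smallest adjusted p among members in floxed islets. It read 13.2, 12.4 and 12.8 FPKM on chow at 14 weeks and 27.4, 24.9 and 25.3 FPKM on the high-fat diet. The high-fat libraries stood at 2.02 ± 0.0712 (SE) times the chow mean with no overlap, a difference of 0.96 ± 0.0907 (adjusted p = 4.68e-07). Ephx1 (chr1:180989556-181017569), the microsomal epoxide hydrolase, read 36.5, 34.3 and 35.6 FPKM on chow and 66.9, 64.8 and 63.1 FPKM on the high-fat diet. Every high-fat library was far above every chow library, and the difference was 0.86 ± 0.0836 (adjusted p = 7.21e-07).

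Gpx1 (chr9:108339080-108340342), the cytosolic glutathione peroxidase, read 162, 165 and 174 FPKM on chow and 285, 267 and 285 FPKM on the high-fat diet. The groups were well apart, with a difference of 0.74 ± 0.0747 (adjusted p = 1.08e-06). Gpx2, a glutathione peroxidase best known from the gut epithelium, read 67.7, 89.8 and 96.1 FPKM on chow and 145, 137 and 149 FPKM on the high-fat diet. Chow replicate 1 was the lowest of these, and no chow library reached a high-fat one (0.77 ± 0.0947, adjusted p = 9.29e-06). Sod1, the copper-zinc superoxide dismutase, read 156, 176 and 168 FPKM on chow and 276, 269 and 264 FPKM on the high-fat diet. The ranges did not overlap and the difference was 0.69 ± 0.0988 (adjusted p = 4.7e-05). Its mitochondrial counterpart Sod2 rose by 0.38 ± 0.0694 (adjusted p = 4.65e-04).

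Gstm1 (chr3:108012250-108017973), a mu-class glutathione transferase with close relatives beside it in the genome, read 463, 424 and 442 FPKM on chow and 783, 711 and 735 FPKM on the high-fat diet. All 3 high-fat libraries were higher, at 1.68 ± 0.0636 (SE) times the chow mean (0.74 ± 0.0776, adjusted p = 1.5e-06). Hmox1, heme oxygenase, rose by 0.77 ± 0.163 (adjusted p = 0.00264), and Nqo1 rose by 0.73 ± 0.182 (adjusted p = 0.00575). Smaller rises, between 0.19 and 0.45, were called for Txn1, Txnrd1, Txnip, Srxn1, Prdx1, Prdx2, Prdx3, Prdx4, Prdx6, Gpx4, Gclm, Me1, Ftl1, Sqstm1 and Ugdh. Txnip, which binds and inhibits thioredoxin, rose beside Txn1 itself. The calls of Ftl1, Prdx3, Me1, Prdx2 and Txnrd1 ended in 18, 16, 9, 8 and 7 of 28 alternatives.

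The 2 members that fell in floxed islets were Gpx3 and G6pdx. Gpx3 (chr11:54902854-54910387), the secreted glutathione peroxidase of plasma, read 473, 492 and 501 FPKM on chow and 333, 359 and 342 FPKM on the high-fat diet. Each high-fat library was below each chow library (-0.50 ± 0.0785, adjusted p = 1.21e-04). G6pdx, glucose-6-phosphate dehydrogenase, the entry enzyme of the pentose phosphate pathway, read 24.4, 22.0 and 25.7 FPKM on chow and 19.3, 18.5 and 20.3 FPKM on the high-fat diet. It was lower in all 3 high-fat libraries (-0.30 ± 0.0711, adjusted p = 0.00419).

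In deleted islets the high-fat diet raised 28 of 42 members and lowered 0 (at an unadjusted p below 0.05, 29 and 0), against 9.05% of all tested genes called higher and 5.91% lower. The median was 0.35 for members and 0.00 for all tested genes. All 5 metal and heme genes rose, as did 3 of 4 for glutathione, 3 of 5 for NADPH supply, 5 of 7 for peroxide and superoxide removal, 6 of 10 of the thioredoxin and peroxiredoxin system, 4 of 7 for detoxification and 2 of 4 regulators. Of the metal and heme genes only Mt2 was still called after quantile normalization, at 0.30 (adjusted p = 0.0332), with Hmox1 at 0.55 (adjusted p = 0.0633), Fth1 at 0.16 (adjusted p = 0.106), Mt1 at -0.13 and Ftl1 at -0.21. For Mt1, Mt2, Ftl1 and Fth1 that method follows ranks among few abundant genes and need not keep the size of a change, as given below. The calls of Gpx3, Sod2, Hmox1 and Txnrd1 ended in 8, 7, 5 and 5 of 28 alternatives.

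Srxn1 (chr2:152105524-152111376), sulfiredoxin, which restores overoxidised peroxiredoxins, read 58.0, 52.6 and 54.2 FPKM in deleted chow islets at 14 weeks and 119, 96.8 and 95.2 FPKM on the high-fat diet. The high-fat libraries were at 1.89 ± 0.15 (SE) times the chow mean without overlap, a difference of 0.90 ± 0.0767 (adjusted p = 3.59e-07). Ugdh (chr5:65413207-65435842), which makes the UDP-glucuronic acid used in glucuronidation, read 32.4, 27.7 and 29.6 FPKM on chow and 54.0, 49.9 and 49.0 FPKM on the high-fat diet. No chow library came near the high-fat ones (0.75 ± 0.0682, adjusted p = 8.11e-07). Osgin1 read 13.7, 14.7 and 15.5 FPKM on chow and 28.3, 25.6 and 29.3 FPKM on the high-fat diet. Its rise of 0.88 ± 0.0907 (adjusted p = 4.53e-06) was close to that in floxed islets, and the difference between the genotypes was -0.08 ± 0.128 (adjusted p = 0.806).

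Txnip (chr3:96557957-96561857) read 14.6, 14.9 and 13.7 FPKM in deleted chow islets and 27.3, 29.9 and 27.4 FPKM on the high-fat diet. The groups did not overlap, and the difference was 0.92 ± 0.0969 (adjusted p = 5.19e-06). Gstm1 read 513, 531 and 460 FPKM on chow and 818, 811 and 841 FPKM on the high-fat diet. Again every high-fat library was higher (0.72 ± 0.0776, adjusted p = 6.89e-06). Gclc (chr9:77754535-77794489), the catalytic subunit of the enzyme that limits glutathione synthesis, read 17.1, 15.7 and 16 FPKM on chow and 30.5, 23.4 and 26.9 FPKM on the high-fat diet. Replicate 1 on the high-fat diet was highest and replicate 2 lowest, all above chow (0.69 ± 0.0825, adjusted p = 2.28e-05).

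Nqo1 (chr8:107388225-107403205) had the largest rise in deleted islets, 1.37 ± 0.182 (adjusted p = 6.46e-05). It read 3.10, 4.89 and 3.19 FPKM on chow and 12.1, 10.5 and 10.4 FPKM on the high-fat diet, so the high-fat mean was 2.96 ± 0.486 (SE) times the chow mean and the groups lay apart. Mt1 and Mt2 rose by 0.63 ± 0.127 (adjusted p = 0.00245) and 0.67 ± 0.126 (adjusted p = 0.00155). In the glutathione group Gclm, the modifier subunit of the same ligase as Gclc, rose by 0.31 ± 0.0596 (adjusted p = 0.00165) and Gsr, glutathione reductase, by 0.29 ± 0.0704 (adjusted p = 0.00788). Among the NADPH genes Pgd, 6-phosphogluconate dehydrogenase, rose by 0.50 ± 0.0791 (adjusted p = 3.07e-04), Me1, malic enzyme, by 0.41 ± 0.0925 (adjusted p = 0.00534) and Taldo1, transaldolase, by 0.25 ± 0.0648 (adjusted p = 0.0125).

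The members called higher with diet in both genotypes numbered 20, which is 83.3% of the 24 in floxed and 71.4% of the 28 in deleted islets. The overlap was not counted over all tested genes, of which 15% were called higher in floxed and 9.05% in deleted islets. Gpx4, Prdx2, Prdx3 and Prdx4 were called higher in floxed islets alone, and Fth1, Gclc, Gpx3, Gsr, Mt1, Mt2, Pgd and Taldo1 in deleted islets alone. Of these 12 members only Gclc and Gpx3 passed the test of the difference between genotypes. The plot of diet differences shows the genotypes side by side.

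**Figure D2:**
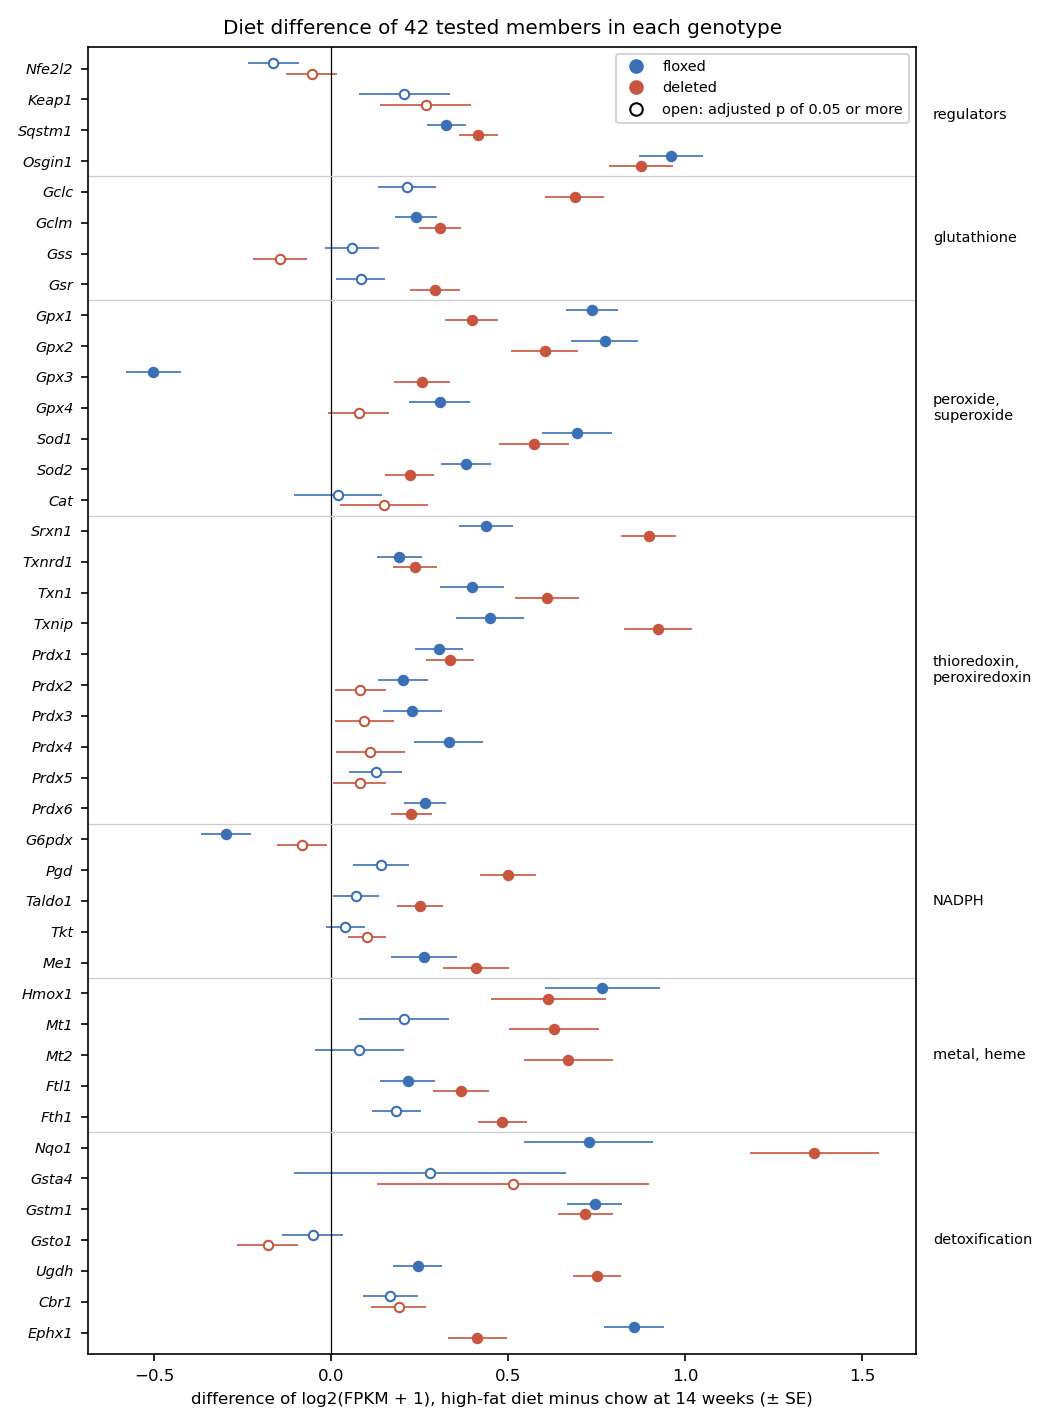
Difference of log2(FPKM + 1) between high-fat diet and chow at 14 weeks (± SE) for the 42 tested members, in floxed (blue) and deleted (red) islets, ordered by role, with open circles for an adjusted p of 0.05 or more. Most points lie to the right of 0 in both genotypes, and Gpx3 lies at -0.50 in floxed and 0.26 in deleted islets.

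Abundant genes as a whole moved up with the diet, and the members are abundant. Among tested genes with a mean of 300 to 1000 FPKM, 57.1% were called higher with the diet in floxed islets and 51% in deleted islets, and 4 of 5 members of that range were called higher in each genotype. Among genes with a mean of at most 30 FPKM, 10.9% and 6.07% were called higher, against 4 and 6 of 11 members. Between 30 and 100 FPKM the shares were 21.7% and 11.8%, against 8 and 7 of 13 members, and between 100 and 300 FPKM 37.9% and 27.5%, against 7 of 9 members in each genotype. Above 1000 FPKM 51.6% of genes were called higher in each genotype, with 1 of 4 members in floxed and 4 of 4 in deleted islets. After quantile normalization, which gives all libraries the same distribution of values, 16 members were higher and 4 lower with the diet in floxed islets, and 20 higher and 1 lower in deleted islets. The lower ones were Gpx3, G6pdx, Nfe2l2 (-0.19, adjusted p = 0.0424) and Mt2 (-0.25, adjusted p = 0.0424) in floxed and Gsto1 (-0.23, adjusted p = 0.048) in deleted islets. Among the members called with the diet before it, Ftl1 in both genotypes, Prdx2 and Sqstm1 in floxed and Mt1 in deleted islets then changed sign. Some members not called before it changed sign too. Osgin1, Ephx1, Gpx1, Gpx2, Sod1 and Gstm1 in floxed and Srxn1, Ugdh, Osgin1, Txnip, Gstm1, Gclc and Nqo1 in deleted islets were called as before. Quantile normalization sets each value by its rank. Only 31 tested genes averaged above 1000 FPKM, Mt1, Mt2, Ftl1 and Fth1 among them. For these 4 members the differences so obtained follow changes of rank and need not keep the size of a change.

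**Figure D3:**
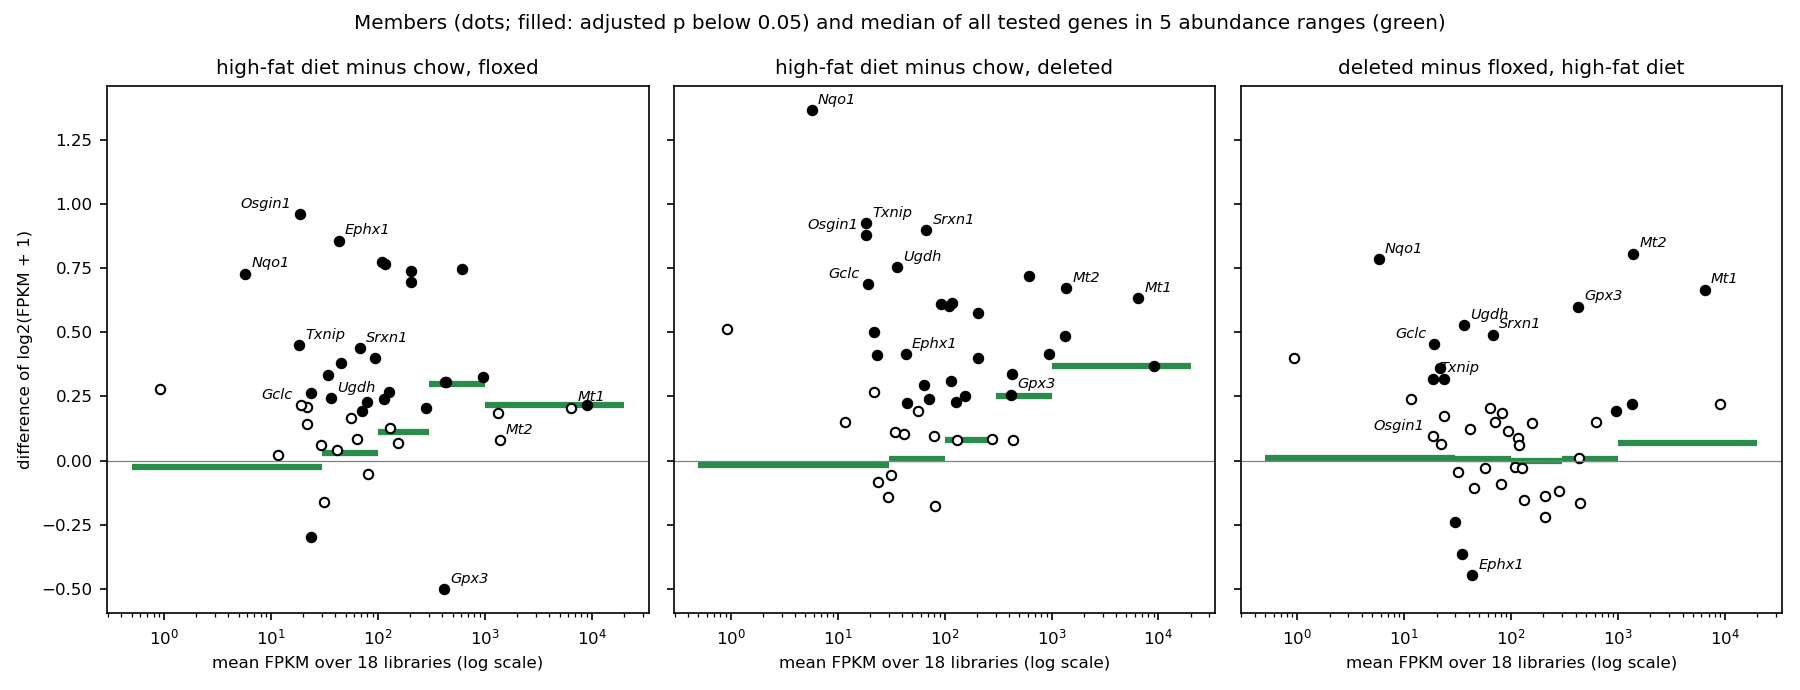
Difference of log2(FPKM + 1) against mean FPKM (log scale) for the tested members (dots, filled where called) with the median of all tested genes in 5 ranges of abundance (green lines), for the diet in each genotype and for genotype on the high-fat diet. The medians of all genes rise with abundance in both diet panels, to 0.30 in floxed and 0.25 in deleted islets between 300 and 1000 FPKM, and stay within 0.07 of 0 in the genotype panel.

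Cell-type markers moved with the diet too, and in bulk islets fewer cells of a type and less RNA per cell cannot be told apart. All 9 tested acinar markers, digestive enzyme genes of the exocrine pancreas, were called lower with the diet in floxed islets and 7 of 9 in deleted islets. Summed over 10 acinar markers, of which Amy2a5 was listed at 0 in every library, levels went from 906 to 4522 FPKM on chow to 19.6 to 290.7 FPKM on the high-fat diet in floxed islets, and from 1367 to 2514 to 82.6 to 173.3 FPKM in deleted islets. Of 9 macrophage markers, none listed at 0, 8 were called lower in floxed and 3 in deleted islets, with sums of 337 to 385.4 against 197 to 223 FPKM and 268.5 to 334.6 against 201.6 to 216.1 FPKM. The 10 beta cell markers together held 49.5% to 51.8% of summed FPKM on chow and 61.8% to 62.5% on the high-fat diet in floxed islets, and 49.4% to 53.2% and 60.1% to 61.3% in deleted islets. Ins2 made up most of these sums. Of the 10 markers, 4 were called higher and 1 lower with the diet in floxed islets (median 0.05). In deleted islets 9 were called higher and 0 lower (median 0.47). Of 5 tested alpha cell markers 2 were called lower in floxed and 3 higher in deleted islets, and of 5 delta and PP cell markers 3 lower and 2 higher. Duct cell markers were called lower in 3 of 4 in floxed and 1 of 4 in deleted islets, and endothelial ones in 3 and 1 of 7. For fibroblast and pericyte markers these counts were 2 and 5 of 6, and for red blood cell markers 1 and 3 of 4. With a covariate made of the mean acinar marker level, 14 members were called with the diet in floxed and 22 in deleted islets, where the standard errors were 1.5 and 1.42 times as large in the median. Among the calls that ended in floxed islets, Nqo1 was at 0.77 with that covariate against 0.73 without it, and Me1 at 0.02 against 0.26. With a covariate made of the macrophage markers 0 and 3 were called, with standard errors 3.78 and 2.2 times as large. The 3 that were still called in deleted islets were Srxn1, Ugdh and Fth1. The part of these cell types in the diet differences was not tested beyond this.

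On the high-fat diet more members were called higher than lower in deleted islets. Of 42 members 12 were called higher and 3 lower than in floxed islets, against 4.7% and 6.02% of all tested genes, and the median was 0.14 against 0.01. The higher ones were Ugdh, Gpx3, Srxn1, Mt2, Gclc, Mt1, Pgd, G6pdx, Nqo1, Sqstm1, Txnip and Fth1, and the lower ones Ephx1, Prdx4 and Gss. By role, 3 of 5 metal and heme genes and 2 of 5 NADPH genes were higher, while the thioredoxin and peroxiredoxin system had 2 of 10 higher and 1 lower, and detoxification 2 of 7 higher and 1 lower. Glutathione synthesis and recycling had 1 of 4 higher and 1 lower, peroxide and superoxide removal 1 of 7 higher, and the regulators 1 of 4 higher.

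Ugdh read 34.1, 35.5 and 35.5 FPKM in floxed and 54.0, 49.9 and 49.0 FPKM in deleted islets on the high-fat diet. The deleted libraries were all higher, at 1.45 ± 0.0477 (SE) times the floxed mean, a difference of 0.53 ± 0.0682 (adjusted p = 5.05e-05). Srxn1 read 74.1, 72.1 and 73.2 FPKM in floxed and 119, 96.8 and 95.2 FPKM in deleted islets. Deleted replicate 1 was the highest, and the remaining deleted libraries also cleared every floxed library (0.49 ± 0.0767, adjusted p = 3.49e-04). Gclc read 20.1, 18.9 and 18.9 FPKM in floxed and 30.5, 23.4 and 26.9 FPKM in deleted islets. The spread was wider in deleted islets, without overlap (0.45 ± 0.0825, adjusted p = 0.00139).

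Gpx3 read 333, 359 and 342 FPKM in floxed and 563, 525 and 483 FPKM in deleted islets on the high-fat diet. The ranges lay well apart (0.60 ± 0.0785, adjusted p = 5.64e-05). Mt2 (chr8:94172618-94173567) read 1302, 1093 and 1016 FPKM in floxed and 1723, 2115 and 2121 FPKM in deleted islets. All deleted libraries were higher, at 1.75 ± 0.175 (SE) times the floxed mean (0.81 ± 0.126, adjusted p = 4.27e-04). Its neighbour Mt1 (chr8:94178883-94180327) read 6492, 5397 and 5308 FPKM in floxed and 8006, 9566 and 9692 FPKM in deleted islets. The groups did not overlap and the difference was 0.67 ± 0.127 (adjusted p = 0.00216), but after quantile normalization it was 0.094 (adjusted p = 0.588). That method follows ranks, which for the most abundant genes need not keep the size of a change.

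Nqo1 read 6.69, 4.24 and 7.41 FPKM in floxed and 12.1, 10.5 and 10.4 FPKM in deleted islets on the high-fat diet. Floxed replicate 2 was the lowest of its group, and every deleted library was higher (0.78 ± 0.182, adjusted p = 0.00849). Without floxed replicate 2 the adjusted p was 0.0528. In the oxidative branch of the pentose phosphate pathway, G6pdx read 19.3, 18.5 and 20.3 FPKM in floxed and 23.9, 24.1 and 24.9 FPKM in deleted islets, and Pgd 23.5, 21.4 and 23.3 against 27.6, 29.1 and 31.7 FPKM. Both enzymes make NADPH, neither pair of groups overlapped, and the differences were 0.32 ± 0.0711 (adjusted p = 0.00667) and 0.36 ± 0.0791 (adjusted p = 0.00586). Tkt and Taldo1, of the non-oxidative branch, were at 0.12 ± 0.0546 (adjusted p = 0.156) and 0.15 ± 0.0648 (adjusted p = 0.161).

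Ephx1 was lower in deleted islets, with 66.9, 64.8 and 63.1 FPKM in floxed and 51.8, 47.4 and 43.5 FPKM in deleted libraries on the high-fat diet. No deleted library reached the floxed range (-0.45 ± 0.0836, adjusted p = 0.00169). Prdx4, the peroxiredoxin of the endoplasmic reticulum, read 40.2, 50.4 and 41.6 FPKM in floxed and 36.0, 30.6 and 35.3 FPKM in deleted islets. The difference was -0.36 ± 0.0976 (adjusted p = 0.0208), and the call ended without floxed replicate 2 or without deleted replicate 2. Gss, glutathione synthetase, was called at -0.24 ± 0.0765 (adjusted p = 0.0487) although its groups overlapped, at 27.4, 35.3 and 31.7 FPKM in floxed and 26.3, 28.1 and 24.8 FPKM in deleted islets.

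Across all 28 alternative analyses, covariates included, the calls of Ugdh, Srxn1, Gclc, Gpx3, Mt2, G6pdx, Pgd and Ephx1 held, 8 of the 15. The calls of Gss, Fth1, Txnip and Sqstm1 ended in 19, 15, 7 and 5 of 28 alternatives. Without replicate 2 of the floxed group on the high-fat diet the count of called members was 10. Cell-type markers also differed between the genotypes on the high-fat diet. Of 5 tested alpha cell markers 4 were called higher in deleted islets, with sums of 23390 to 28290 FPKM in floxed and 36180 to 46610 FPKM in deleted libraries, and of 5 delta and PP cell markers 3 were called higher, with sums of 17460 to 25270 and 21490 to 31690 FPKM. Of 10 beta cell markers 3 were called higher, while 4 of 7 endothelial markers were called lower, with sums of 118.4 to 153.4 and 99.8 to 105.6 FPKM. None of those markers was listed at 0 in any library. Of 4 tested red blood cell markers 3 were called lower, with sums over 6 listed markers of 7.06 to 10.0 FPKM in floxed and 0.701 to 3.16 FPKM in deleted libraries, where 1 to 3 of the 6 were listed at 0. Of 6 tested fibroblast and pericyte markers 1 was called lower, and the median was -0.64. The part of these cell types in the differences of the members was not tested. Beta cell markers held 61.8% to 62.5% and 60.1% to 61.3% of summed FPKM, and acinar sums overlapped at 19.6 to 290.7 and 82.6 to 173.3 FPKM.

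**Figure D4:**
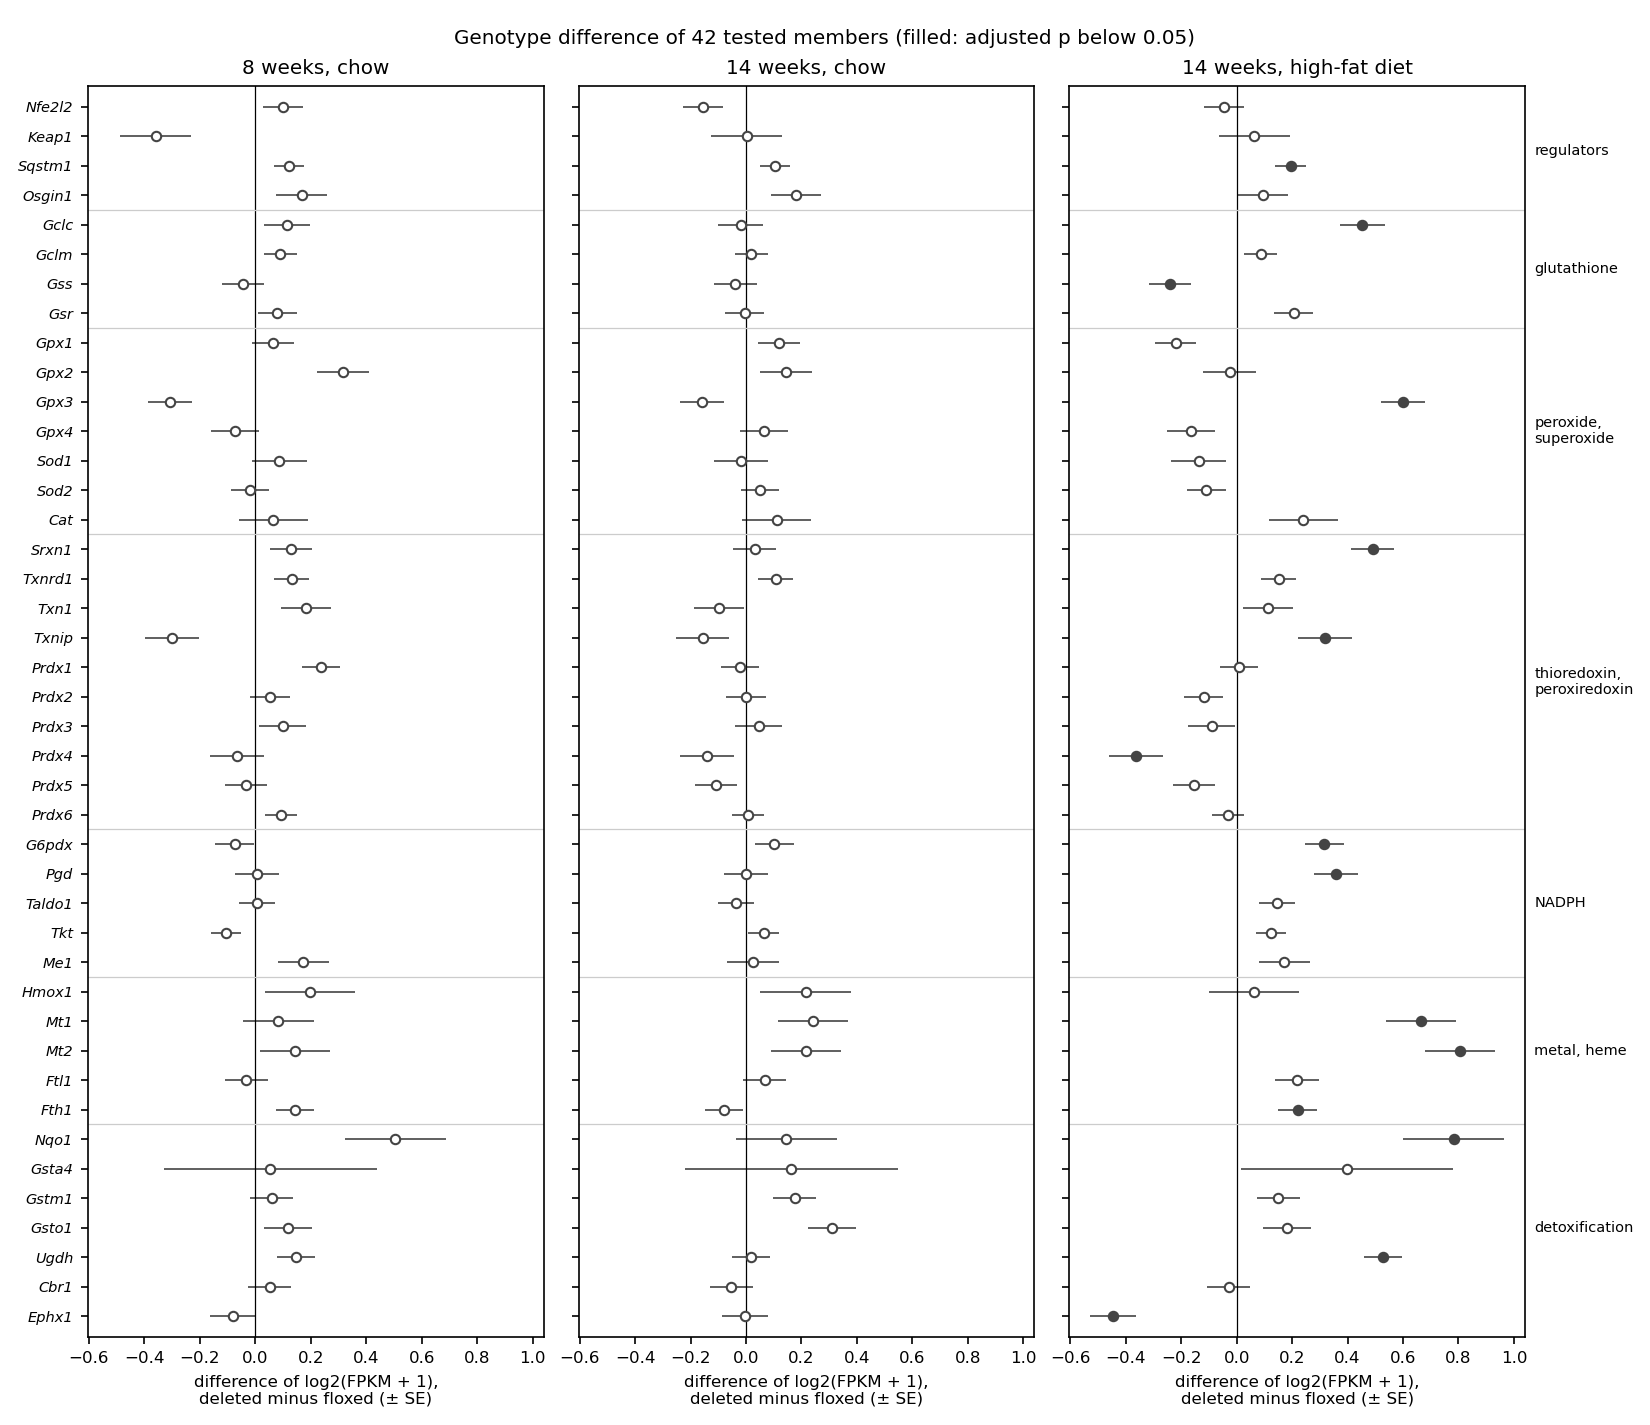
Difference of log2(FPKM + 1) between deleted and floxed islets (± SE) for the 42 tested members in each condition, ordered by role, filled where the adjusted p was below 0.05. No point is filled at 8 or at 14 weeks on chow, and 15 are filled on the high-fat diet, 12 of them to the right of 0.

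The change with diet differed between genotypes in 5 of 42 members. In 4 the deleted minus floxed difference of the changes was above 0 and in 1 below 0, against 1.42% and 2.11% of all tested genes. Gpx3 had the largest such difference, 0.76 ± 0.111 (adjusted p = 6.31e-04), since it fell by 0.50 in floxed islets and rose by 0.26 ± 0.0785 (adjusted p = 0.0322) in deleted islets, from 468, 419 and 427 to 563, 525 and 483 FPKM. After quantile normalization that rise in deleted islets was 0.0057 while the difference between genotypes was still called. The diet difference of Ugdh was larger in deleted islets by 0.51 ± 0.0964 (adjusted p = 0.00531), being 0.24 ± 0.0682 (adjusted p = 0.0115) in floxed islets, which read 30.3, 28.8 and 29.1 FPKM on chow. The diet difference of Srxn1 was larger by 0.46 ± 0.109 (adjusted p = 0.0222), being 0.44 ± 0.0767 (adjusted p = 3.44e-04) in floxed islets, from 57.6, 55.4 and 48.5 FPKM on chow. Srxn1 thus rose in both genotypes, and more in the deleted one.

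Gclc rose by 0.47 ± 0.117 more in deleted islets (adjusted p = 0.0285), and its floxed libraries, at 17.4, 15.8 and 16.2 FPKM on chow, showed 0.21 ± 0.0825 (adjusted p = 0.058). The diet difference of Ephx1 was smaller in deleted islets (-0.44 ± 0.118, adjusted p = 0.0423). Ephx1 went from 33.4, 38.3 and 34.6 to 51.8, 47.4 and 43.5 FPKM there, without overlap (0.41 ± 0.0836, adjusted p = 0.00233). The calls of Gpx3 and Ugdh held in every alternative but the macrophage covariate, and those of Srxn1, Gclc and Ephx1 ended in 6, 8 and 13 of 28 alternatives. The count of called members was 2 without replicate 2 of the floxed high-fat group. It was 3 without replicate 3 of either high-fat group, without replicate 2 or 3 of the deleted chow group, or without replicate 1 or 2 of the floxed chow group at 14 weeks. It was 10 with sample quality weights, and 7 after quantile normalization, which added Mt2 (0.55, adjusted p = 0.0212) and Gpx1 (-0.32, adjusted p = 0.0212). Not past the threshold were Txnip (0.48 ± 0.137, adjusted p = 0.0611), Mt2 (0.59 ± 0.178, adjusted p = 0.0794), Gpx1 (-0.34 ± 0.106, adjusted p = 0.0873) and Nqo1 (0.64 ± 0.257, adjusted p = 0.202). Cell-type markers were called for the same difference of diet changes. Higher were 4 of 5 alpha cell markers (median 0.96), 3 of 5 delta and PP cell markers (median 1.11) and 2 of 10 beta cell markers (median 0.30), and lower were 2 of 4 red blood cell markers (median -1.47). Their part in the 5 calls was not tested.

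On chow 0 members were called between the genotypes, and few of all tested genes were. At 8 weeks 0 of 42 members were called in either direction by limma (5 higher and 3 lower at an unadjusted p below 0.05), where 0.18% of all tested genes were called higher and 0.368% lower. At 14 weeks 0 were called (2 higher and 1 lower unadjusted), with 0.0654% and 0.049% of all tested genes. The medians were 0.08 and 0.02, against -0.01 and 0.00 for all tested genes, and 30 and 26 of the 42 differences lay above 0. At 8 weeks Gpx3 was at -0.31 ± 0.0785 (adjusted p = 0.0776), with 391, 409 and 377 FPKM in floxed and 286, 303 and 365 FPKM in deleted islets, so the deleted libraries lay lower, the opposite of their order on the high-fat diet. Txnip was at -0.30 ± 0.0969 (adjusted p = 0.176), and Nqo1 at 0.50 ± 0.182 (adjusted p = 0.23), with 4.28, 3.79 and 4.05 FPKM in floxed and 8.62, 4.87 and 5.46 FPKM in deleted islets, where replicate 1 was the highest. Prdx1 was at 0.24 ± 0.0685 (adjusted p = 0.124) and was called at 0.23 after quantile normalization (adjusted p = 0.017). At 14 weeks the 95% intervals of the difference were -0.12 to 0.18 for Srxn1, -0.11 to 0.15 for Ugdh and -0.18 to 0.14 for Gclc. At 8 weeks 2 of 5 tested alpha cell markers were called lower in deleted islets (median -0.56). Their sums were 28910 to 33290 FPKM in floxed and 15810 to 23860 FPKM in deleted libraries. Of 5 delta and PP cell markers 1 was called higher, with sums of 13230 to 19170 and 44320 to 58060 FPKM. Their part in the differences of the members was not tested.

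With age on chow few members were called, as few of all tested genes were. Between 8 and 14 weeks 1 of 42 was called higher and 1 lower in floxed islets, against 3.2% and 0.948% of all tested genes, and 1 higher and 2 lower in deleted islets, against 2.35% and 0.564%. At an unadjusted p below 0.05, 2 members were higher and 6 lower in floxed islets, and 3 higher and 14 lower in deleted islets. The differences of 31 and 29 of the 42 lay below 0. Such counts were not made over all tested genes. The medians were -0.06 and -0.11, against -0.02 and -0.01 for all tested genes. Gpx3 was higher at 14 weeks in both genotypes, by 0.32 ± 0.0785 in floxed islets (adjusted p = 0.0261) and 0.47 ± 0.0785 in deleted islets (adjusted p = 0.00198). It went from 391, 409 and 377 to 473, 492 and 501 FPKM and from 286, 303 and 365 to 468, 419 and 427 FPKM, without overlap in either genotype. The call in floxed islets ended in 6 of 28 alternatives, quantile normalization among them. Gstm1 was lower at 14 weeks in floxed islets (-0.39 ± 0.0776, adjusted p = 0.00609), from 601, 591 and 552 to 463, 424 and 442 FPKM, also without overlap.

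In deleted islets Ugdh was lower at 14 than at 8 weeks, going from 37.5, 36.2 and 39.8 to 32.4, 27.7 and 29.6 FPKM (-0.33 ± 0.0682, adjusted p = 0.00966). Gclm went from 127, 121 and 123 to 101, 105 and 100 FPKM (-0.27 ± 0.0596, adjusted p = 0.0166). The groups did not overlap for either gene. In a fit of these 2 groups alone, 0 members were called in deleted islets, and with the acinar covariate the calls of Ugdh (-0.30, adjusted p = 0.0962) and Gclm (-0.29, adjusted p = 0.065) ended, with standard errors 1.28 times as large in the median. The change with age differed between genotypes in 0 members (1 higher and 4 lower unadjusted), against 0.049% and 0.147% of all tested genes. Acinar sums were far higher at 14 than at 8 weeks on chow, at 906 to 4522 against 78.4 to 213.7 FPKM in floxed and 1367 to 2514 against 37.7 to 1166 FPKM in deleted islets, and macrophage sums went from 220.6 to 256 to 337 to 385.4 FPKM in floxed islets. With the macrophage covariate 0 members were called with age in either genotype, with standard errors 4.24 times as large in floxed and 1.92 times in deleted islets. Of 5 tested alpha cell markers 1 was called higher with age in floxed and 3 in deleted islets (medians 0.32 and 0.69). Of 5 delta and PP cell markers 0 were called in floxed and 2 lower in deleted islets. The part of these cell types in the age differences was not tested beyond this.

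In all, 34 of 42 members were called in at least 1 of the 9 contrasts. That count was not made over all tested genes, of which 15% were called higher and 13.5% lower with the diet in floxed islets alone. The 8 members that were called in none included both partners of the switch itself, although Nfe2l2 and Gsto1 were called after quantile normalization, as given above. Nfe2l2 (chr2:75675513-75704663) read 27.8 to 37.0 FPKM over the 18 libraries, with -0.16 ± 0.0723 for the diet in floxed islets (adjusted p = 0.0986) and -0.05 ± 0.0723 in deleted islets (adjusted p = 0.672). Keap1 (chr9:21229730-21239332) read 12.8 to 27.8 FPKM, with 0.21 ± 0.128 (adjusted p = 0.242) and 0.27 ± 0.128 (adjusted p = 0.173). The others were Cat, Prdx5, Tkt, Gsta4, Gsto1 and Cbr1, the last a carbonyl reductase at 43.3 to 64.8 FPKM. Gsta4 had the widest standard error of a diet difference, 0.384, and so a rise as large as that of Osgin1 in either genotype was inside its 95% interval.

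A further list of 60 antioxidant and NRF2 pathway genes, 58 of them tested, was read in the same way. With the diet 19 rose and 4 fell in floxed islets, and 11 rose and 2 fell in deleted islets, with medians of 0.08 and 0.06. These are 32.8% and 6.9% of the list in floxed islets, against 15% and 13.5% of all tested genes, and 19% and 3.45% in deleted islets, against 9.05% and 5.91%. Gstp1, a pi-class glutathione transferase, read 246, 244 and 257 FPKM on chow at 14 weeks and 447, 406 and 479 FPKM on the high-fat diet in floxed islets, and 271, 291 and 234 against 677, 593 and 616 FPKM in deleted islets. It rose in both genotypes, by 0.83 ± 0.088 (adjusted p = 1.88e-06) and 1.25 ± 0.088 (adjusted p = 2.95e-08), and was higher in deleted than in floxed islets on the high-fat diet (0.50 ± 0.088, adjusted p = 9.78e-04). In floxed islets the glutathione transferases Gstt2 (0.73 ± 0.0931, adjusted p = 1.46e-05) and Gstm5 (0.56 ± 0.0775, adjusted p = 3.8e-05) and the selenium carrier Sepp1 (0.54 ± 0.0763, adjusted p = 4.4e-05) rose. In deleted islets the glucuronosyltransferase Ugt1a6a (0.67 ± 0.0899, adjusted p = 6.07e-05), Bach1, a repressor at antioxidant response elements (0.65 ± 0.12, adjusted p = 0.00126), and Pir (0.62 ± 0.134, adjusted p = 0.00396) rose.

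Between genotypes on the high-fat diet 3 genes of that list were called higher and 5 lower in deleted islets, 5.17% and 8.62% of the list, close to the 4.7% and 6.02% of all tested genes. Sepp1 read 292, 274 and 272 FPKM in floxed and 201, 208 and 193 FPKM in deleted islets (-0.48 ± 0.0763, adjusted p = 4.27e-04), and Slc39a10, a zinc importer, 4.39, 6.13 and 6.87 against 3.00, 2.79 and 2.18 FPKM (-0.88 ± 0.136, adjusted p = 3.12e-04). Every deleted library was lower for both genes. Msrb1, a methionine sulfoxide reductase, was at -0.72 ± 0.168 (adjusted p = 0.00862). The diet difference was lower in deleted islets for Sepp1 (-0.54 ± 0.108, adjusted p = 0.00772), Gstm5 (-0.49 ± 0.11, adjusted p = 0.0164) and Slc39a10 (-0.80 ± 0.192, adjusted p = 0.0247), and for 0 genes of the list was it called higher. On chow 0 were called between genotypes at either age by limma (3 higher and 3 lower unadjusted at 8 weeks, 4 and 1 at 14 weeks). With age Akr1a1, an aldehyde reductase, rose by 0.67 ± 0.0554 in floxed (adjusted p = 1.07e-06) and 0.63 ± 0.0554 in deleted islets (adjusted p = 5.68e-06), and Idh2, a mitochondrial source of NADPH, fell by 0.43 and 0.28 (adjusted p = 0.00147 and 0.0319). In deleted islets Cbr3 (0.79 ± 0.151, adjusted p = 0.0057) and Ccs, the copper chaperone for Sod1 (0.50 ± 0.105, adjusted p = 0.0123), also rose with age.

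Of 11 genes for superoxide-producing NADPH oxidases, 7 were tested. Noxo1, an organizer subunit, rose with the diet in floxed islets (0.61 ± 0.149, adjusted p = 0.00518) and was lower in deleted than in floxed islets on the high-fat diet (-0.65 ± 0.149, adjusted p = 0.00793). Cyba, the p22phox subunit, was lower with the diet in floxed islets (-0.49 ± 0.158, adjusted p = 0.0261) and higher with age (0.73 ± 0.158, adjusted p = 0.0118). Ncf4, a phagocyte subunit, was lower with the diet in floxed islets (-0.54 ± 0.175, adjusted p = 0.0261), and its diet difference was higher in deleted islets by 0.97 ± 0.248 (adjusted p = 0.0344). The mean of Ncf4 was 1.24 FPKM in floxed chow islets at 14 weeks and 0.367 to 0.850 FPKM in the other groups. The diet call in floxed islets thus rests on a group that is high only at about the 1 FPKM of the filter. The call of the difference between genotypes rests on that group and on a rise in deleted islets. That rise, from 0.367 to 0.850 FPKM, was itself not called (0.43 ± 0.175, adjusted p = 0.111). In deleted islets 0 of 7 were called with the diet (1 higher and 1 lower unadjusted). These 3 genes were named after their values were seen, and Cyba and Ncf4 are also expressed by macrophages, whose marker sums are given above.

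The promoters of the members were searched for the core of the antioxidant response element, TGACNNNGC, on both strands, in RefSeq windows (GRCm38.p6, the assembly of mm10) of 250 bases before to 50 bases after the start. Windows were matched for 38 of 43 members, and 11 of these (28.9%) held a match, against 14% of 27025 genes. They were Nfe2l2, Srxn1, Gclm, Txnrd1, Sod1, Prdx1, Mt2, G6pdx, Pgd, Me1 and Ugdh. Members called with the diet whose match lay wholly before the start follow, 5′ to 3′ on the strand of the gene, with the match in capitals, so that the letters can be read beside the values above.
Gclm, chr3:122245407-122245447, plus strand: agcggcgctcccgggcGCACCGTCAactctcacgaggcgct
Txnrd1, 1 of 3 windows, chr10:82859098-82859138, plus strand: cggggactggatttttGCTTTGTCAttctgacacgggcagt
Sod1, chr16:90220690-90220730, plus strand: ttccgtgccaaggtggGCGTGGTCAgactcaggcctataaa
Prdx1, chr4:116685450-116685490, plus strand: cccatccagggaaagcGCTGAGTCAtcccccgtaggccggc
G6pdx, chrX:74428913-74428953, minus strand: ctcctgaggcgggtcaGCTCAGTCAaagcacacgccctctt
Ugdh, chr5:65435912-65435990, minus strand: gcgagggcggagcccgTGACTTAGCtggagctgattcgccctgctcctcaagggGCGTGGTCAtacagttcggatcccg
Ugdh alone among the printed genes had 2 matches in its window, in opposite orientations. Mt2 also had a match before the start, and it is not printed because the bases after that start were not found in the transcripts of Mt2. The match in Srxn1 lay past the start, and Gclc was among the 5 members without a window. A match is a description of letters and not a measured site, and members without a match may hold the element outside the window. The core of the metal response element, TGCNCNC, was in the windows of 17 of 38 members (44.7%) and of 53.6% of all genes, Mt1 and Mt2 included.

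The library preparation does not mark the strand, and 11 members share exon bases with a gene on the other strand, so reads of such pairs cannot be told apart. The share was 73.5% of exon bases for Mt2 (with the antisense gene Gm45774), 26.5% for Ftl1, 19.4% for Txnip, 19.1% for Prdx5, 17.3% for Sqstm1, 13.6% for G6pdx and 10.9% for Keap1. It was smaller for Gss, Prdx2, Gclm and Me1. Ftl1, Fth1 and the mu-class glutathione transferases also have near copies in the genome, and how their reads were divided is not given in the sources used here.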

How the data were processed

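The authors deposited 1 table per library of gene-level FPKM under gene symbols. The submitters' processing notes list the tools TopHat2 2.0.13, Bowtie2 2.2.3, SAMtools 0.1.19 and Cufflinks 2.2.1 and the mouse build mm10. What each tool did, and with which annotation and filters, is not given in the sources used here. No header names the unit, which was taken from Cufflinks and the values. Per the labels' protocols, a miRNeasy kit yielded the RNA, and SMART-Seq HT cDNA was turned into Nextera libraries, which do not mark the strand. Against the geometric mean of all libraries, the median ratio per library was 1.0037 to 1.0079 while summed FPKM spanned 1.54 times, so the deposited FPKM look rescaled between libraries. Absolute depth is unknown. The relative value of 1 fragment, estimated from values under 0.15 FPKM over a narrow range, spanned 1.38 times between libraries. No libraries were near-identical, with Pearson's r of log2 values across genes of 0.991 to 0.9955 within groups.

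The filter asked for 1 FPKM or more in 3 or more of the 18 libraries. The log2(FPKM + 1) values were fitted with limma 3.58.1 (statmod 1.5.0, R 4.3.3), using 6 group means and trended, robust moderated variances. The 9 two-sided contrasts were genotype in each condition, diet and age in each genotype, and both interactions. The Benjamini-Hochberg adjustment ran over all 12234 genes, and calls were made below 0.05. The code was tested on simulated data. Alternatives were a pseudocount of 0.1, no filter, a mean of at least 5 FPKM, quantile normalization, median-ratio scaling, only the groups compared, the replicate number as a block, sample quality weights, and each library left out in turn, on the assumption that the remaining 2 libraries of its group vary as other groups do. The acinar and macrophage covariates (mean log2(FPKM + 1) of each marker list) were added after seeing the data. The members, gene lists and markers were chosen with earlier results of these data known. For each contrast, values in every library were given for up to 6 called members with the smallest adjusted p, for members called in an interaction, and for some other members after their values were seen. Up to 4 called genes of the further list were named per contrast by adjusted p. Gene positions and promoter windows are RefSeq's on GRCm38.p6, matched by symbol for 43 and 38 of 43 members. Exon overlaps are from GENCODE on the same assembly. Reads and protein sequences were not analysed here. Summaries used pandas 2.3.3 and numpy 2.4.6 in python 3.11.15, and plots matplotlib 3.10.9.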

Additional observations from a re-analysis of the deposited data

Results flagged for a closer look

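The change with the high-fat diet differed between floxed and deleted islets by a test of that difference (the interaction of genotype and diet in limma) for 5 members. On the log2(FPKM + 1) scale the deleted minus floxed difference of the diet changes was 0.76 for Gpx3, 0.51 for Ugdh, 0.47 for Gclc, 0.46 for Srxn1 and -0.44 for Ephx1. No group had more than 3 libraries, so no single library was judged for standing apart within its group.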

How the results depend on the processing

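Of 79 calls of members over the 9 contrasts, 45 held in every alternative without a covariate and 10 also with both covariates. Leaving out 1 library, the count of called members was 10 to 18 for genotype on the high-fat diet, 21 to 27 for diet in floxed and 23 to 28 in deleted islets, 1 to 2 for age in floxed and 2 to 5 in deleted islets, 2 to 7 for genotype by diet, 0 to 1 for genotype at 8 weeks, and 0 for genotype at 14 weeks on chow and for genotype by age. Sample quality weights gave 10 for genotype by diet, 7 for age in deleted islets, and 1 for genotype at each age on chow. Quantile normalization gave 5 for age in deleted islets and 1 for genotype at 8 weeks, and reversed Prdx2 (-0.0444), Sqstm1 (-0.0756) and Ftl1 (-0.2058) for diet in floxed islets and Mt1 (-0.1344) and Ftl1 (-0.2058) in deleted islets. For Mt1 and Ftl1 these values follow ranks among few abundant genes, as given above. With only the groups compared, age in deleted islets had 0. The acinar covariate left 14 for diet in floxed islets. The macrophage covariate left 0 for diet and for age in floxed islets, 3 for diet and 0 for age in deleted islets, and 0 for genotype by diet, with standard errors 1.57 to 4.24 times as large in the median, and over these contrasts it lay close to the groups themselves. The cause of the other changes was not tested.

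The labels do not say that a replicate number marks a shared litter or day. Libraries of the same number in different groups correlated at -0.159 to 0.233 (8 of 45 pairs over 0.1), and 14 of 18 correlated best with their own number, a hint from the data only. With the replicate block, 13 members were called for genotype on the high-fat diet, 25 and 28 for diet in floxed and deleted islets, 2 and 4 for age, and 5 for genotype by diet. The unknown number of fragments leaves the precision of low genes such as Gsta4 and Slc7a11 unmeasured.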
